A study of Arabidopsis thaliana with 6 samples.

Results

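The 43 genes described here are the core transcriptional auxin response genes of the Arabidopsis thaliana root meristem that were listed by gene identifier: 24 Aux/IAA repressors, 8 auxin response factors (ARF), 6 GH3 auxin-conjugating enzymes and 5 auxin-induced LBD transcription factors. They are a part of each family and were chosen with earlier results of these data known. The list leaves out 5 further Aux/IAA, 14 further ARF and 7 further GH3 genes, which are described separately below. All 43 were found among the 30424 genes of the count tables. Col-0 seedlings, homozygous in both groups for a HYP2-GFP transgene in the wild type, were compared at 6 days after germination. The treated group spent 1 h in liquid medium with 100 nM RGF1, a secreted peptide known as a root meristem growth factor, and the Mock group spent 1 h in the same medium with water. The meristematic zone was cut out by its GFP signal, 20 root sections were pooled per RNA sample, and each group had 3 RNA-seq libraries. The labels describe separate RNA extractions and do not say that these came from separate plates, so p-values here reflect only how far these samples spread, and that spread may be technical.

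Auxin acts on transcription by removing repressors. In its absence Aux/IAA proteins sit on ARF transcription factors and bring in TOPLESS co-repressors. Auxin binds the F-box receptors TIR1 and AFB together with a short degron in domain II of the Aux/IAA protein, the Aux/IAA is ubiquitinated and degraded, and the freed ARF activates its targets. Many Aux/IAA and GH3 genes are themselves such targets, so their transcripts are widely read as a measure of auxin response, and the LBD genes listed here act downstream of ARF7 and ARF19 in lateral root formation.

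The sequence that carries auxin sensitivity was present in nearly the whole Aux/IAA set. The in-frame codons GGN, TGG, CCN and CCN (N is any base), which encode the degron core glycine-tryptophan-proline-proline, were found in a row in the coding sequence of 22 of the 24 Aux/IAA members. In IAA29 they were in 2 of its 3 annotated transcripts. The 2 members without them were IAA20 and IAA30, both known as Aux/IAA proteins that lack domain II. The region is shown for the most abundant members per length, for IAA18, whose libraries did not overlap between the groups, and for IAA10, the Aux/IAA gene with the lowest Mock level per length, as 30 bases of the coding strand with those codons in capitals up to the last fixed base.
IAA17: caagttgtgGGATGGCCACCggtgagatca
IAA9: caaattgtcGGTTGGCCTCCagtgagatcc
IAA8: caggttgttGGTTGGCCTCCaatcagatca
IAA16: caagttgtgGGATGGCCACCggtacgatct
IAA2: caaatcgttGGTTGGCCACCagtgagatct
IAA18: ccagtggtgGGATGGCCTCCggttcgatcc
IAA10: gttgctgtaGGTTGGCCGCCtctacggact
In the TAIR10.1 assembly these lie at chr1:1136938-1136967 on the plus strand for IAA17, chr5:26255104-26255133 plus for IAA9, chr2:9637725-9637754 plus for IAA8, chr3:1289730-1289759 minus for IAA16, chr3:8181387-8181416 minus for IAA2, chr1:19306231-19306260 plus for IAA18 and chr1:1060328-1060357 plus for IAA10. The printed members share the 4 codons and differ in the bases around them and in the third codon positions.

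ARF proteins bind auxin response elements, of which TGTCTC and TGTCGG are the best known forms. Both were searched on both strands in the window from 250 bases before to 50 bases after each annotated gene start, and no match of one motif can lie on exactly the same bases as a match of the other. TGTCTC was in the window of 13 of the 43 members (30.2%), against 14.2% of 27443 protein-coding genes, and TGTCGG was in 8 members (18.6%), against 5.12% of those genes. At least 1 of the motifs was in 19 members (44.2%), against 18.7% of the protein-coding genes. By family these were 12 of 24 Aux/IAA, 4 of 6 GH3, 2 of 8 ARF and 1 of 5 LBD genes. A match is a description of letters and not evidence of binding. The 250 bases upstream of 3 auxin-inducible members are printed, with matches in capitals. They include IAA19, with the most copies of TGTCTC among the members, and IAA1, with both motifs. IAA5, which is not printed, also had both motifs, with 1 TGTCTC and 2 TGTCGG matches. GAGACA and CCGACA are TGTCTC and TGTCGG read on the other strand.
IAA19: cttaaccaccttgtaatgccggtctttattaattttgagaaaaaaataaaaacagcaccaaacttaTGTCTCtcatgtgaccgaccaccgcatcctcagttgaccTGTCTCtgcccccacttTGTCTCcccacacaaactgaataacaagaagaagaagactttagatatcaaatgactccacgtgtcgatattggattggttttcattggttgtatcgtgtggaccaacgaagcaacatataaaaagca
IAA1: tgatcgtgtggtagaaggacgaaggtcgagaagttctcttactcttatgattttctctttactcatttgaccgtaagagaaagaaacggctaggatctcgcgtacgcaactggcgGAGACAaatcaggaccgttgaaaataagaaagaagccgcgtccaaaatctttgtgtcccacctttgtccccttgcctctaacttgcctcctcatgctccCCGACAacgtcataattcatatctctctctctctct
GH3.3: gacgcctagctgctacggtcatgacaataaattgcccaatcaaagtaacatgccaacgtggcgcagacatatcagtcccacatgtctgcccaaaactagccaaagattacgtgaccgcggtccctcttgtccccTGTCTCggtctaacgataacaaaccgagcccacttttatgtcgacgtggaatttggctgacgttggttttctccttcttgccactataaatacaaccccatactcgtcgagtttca
They lie in TAIR10.1 at chr3:5263751-5264000 on the plus strand, chr4:8360746-8360995 on the plus strand and chr2:9866563-9866812 on the minus strand. The gene IAA19 carried 3 copies of TGTCTC in this stretch.

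After 1 h of RGF1, no member of the 4 families passed the test in either direction. The 32 members that passed the filter on low counts were 20 Aux/IAA, 8 ARF and 4 GH3 genes, and the edgeR quasi-likelihood test with Benjamini-Hochberg adjustment over all 16737 genes tested called 0 of them higher and 0 lower at an adjusted p below 0.05. Across all genes tested, 0.496% were called, 0.466% higher and 0.0299% lower. Same-numbered libraries deviated together, and with the replicate number as a block edgeR called 1.80% of all genes but again 0 members. DESeq2 and limma voom also called 0 members. At an unadjusted edgeR p below 0.05 there were 0 members higher and 2 lower, IAA18 and GH3.1. Across all 16737 genes tested, 713 were higher and 585 lower at that p (7.76% in either direction). A p that misses the threshold does not show that the levels were equal, and the width of each interval is given below.

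The direction of the fitted differences was mixed. Of the 32 members, 13 had a positive and 19 a negative log2 fold change of RGF1 over Mock, with a median of -0.10, beside -0.01 over all genes tested. The Aux/IAA genes had 6 positive and 14 negative values with a median of -0.16 and a range of -2.02 to 1.81. The ARF genes had 5 positive and 3 negative values with a median of 0.04 and a range of -0.32 to 0.47, and the GH3 genes had 2 positive and 2 negative values with a median of -0.01 and a range of -2.97 to 0.38. The libraries of the groups did not overlap for 1 member higher in RGF1, IAA30, and for 2 lower, IAA18 and GH3.1, beside 7.30% and 6.18% of all genes tested. The other 29 tested members overlapped.

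**Figure D1:**
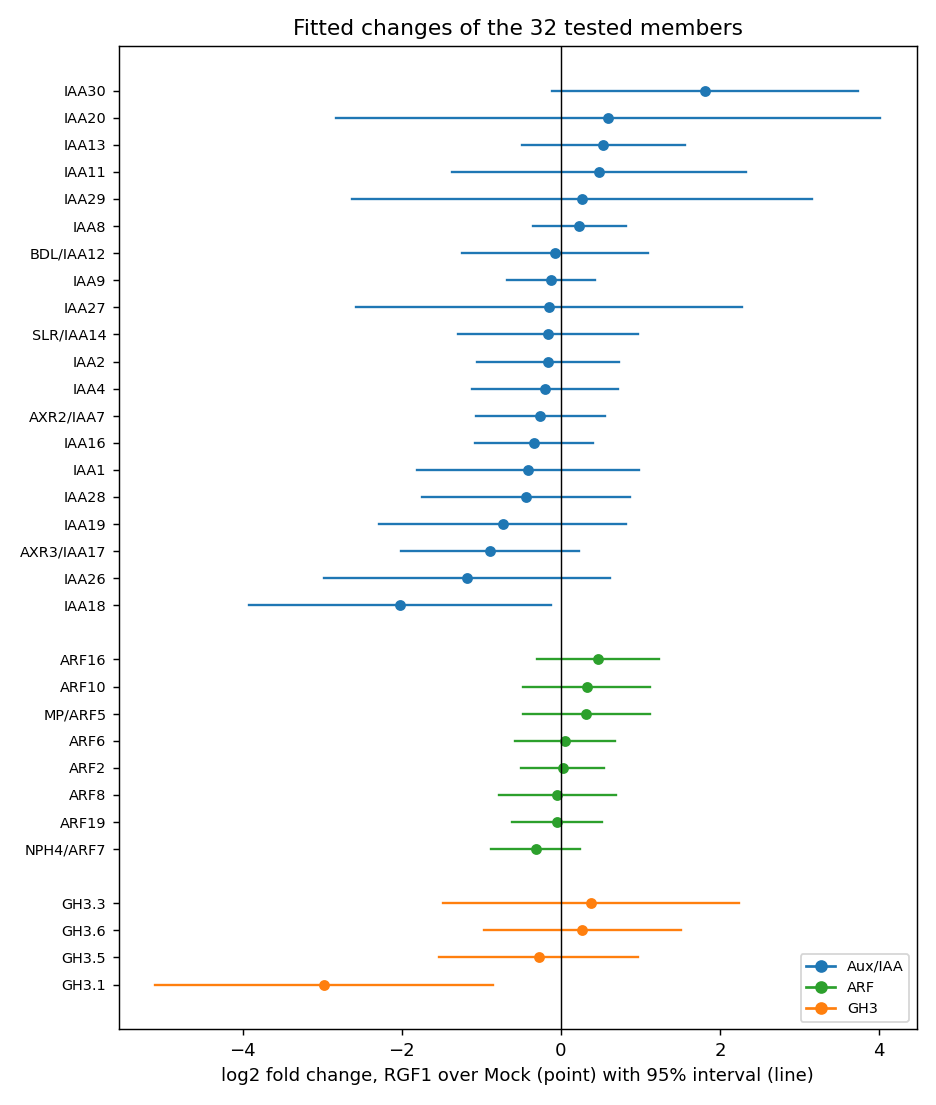
Fitted log2 fold change of RGF1 over Mock for each of the 32 tested members, with the 95% interval as a line, grouped by family. The ARF points lie between -0.32 and 0.47, and the intervals of all members but IAA18 and GH3.1 include 0.

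The Aux/IAA family was dominated by a few genes. Levels between genes were compared as CPM (library counts scaled by TMM to a common size) per kb of annotated exon. IAA17, also called AXR3, whose stabilising mutations make roots agravitropic, had the highest Mock level of the family, with 61.8 ± 48.4 CPM per kb in RGF1 and 115 ± 52.2 CPM per kb in Mock libraries (SD, n = 3 each). IAA9 followed with 86.5 ± 8.15 in RGF1 and 94.5 ± 26.6 CPM per kb in Mock. Those Mock means were at percentiles 97.4 and 96.7 of all genes. IAA8 had 56.7 ± 11.04 and 48.3 ± 11.6, IAA16 had 35.6 ± 13.5 and 45.2 ± 15.6, and IAA2 had 39.1 ± 20.6 and 43.8 ± 16.6 CPM per kb in RGF1 and Mock. The spreads of IAA17 and IAA9 overlapped in both groups, and IAA9 had the higher mean in RGF1, so their order is not resolved. The order of IAA8, IAA16 and IAA2 is not resolved either, as their spreads also overlapped in both groups. Together these 5 genes made up 73.8 ± 3.98% of the summed per-length Aux/IAA level in RGF1 and 73.6 ± 4.45% in Mock libraries.

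**Figure D2:**
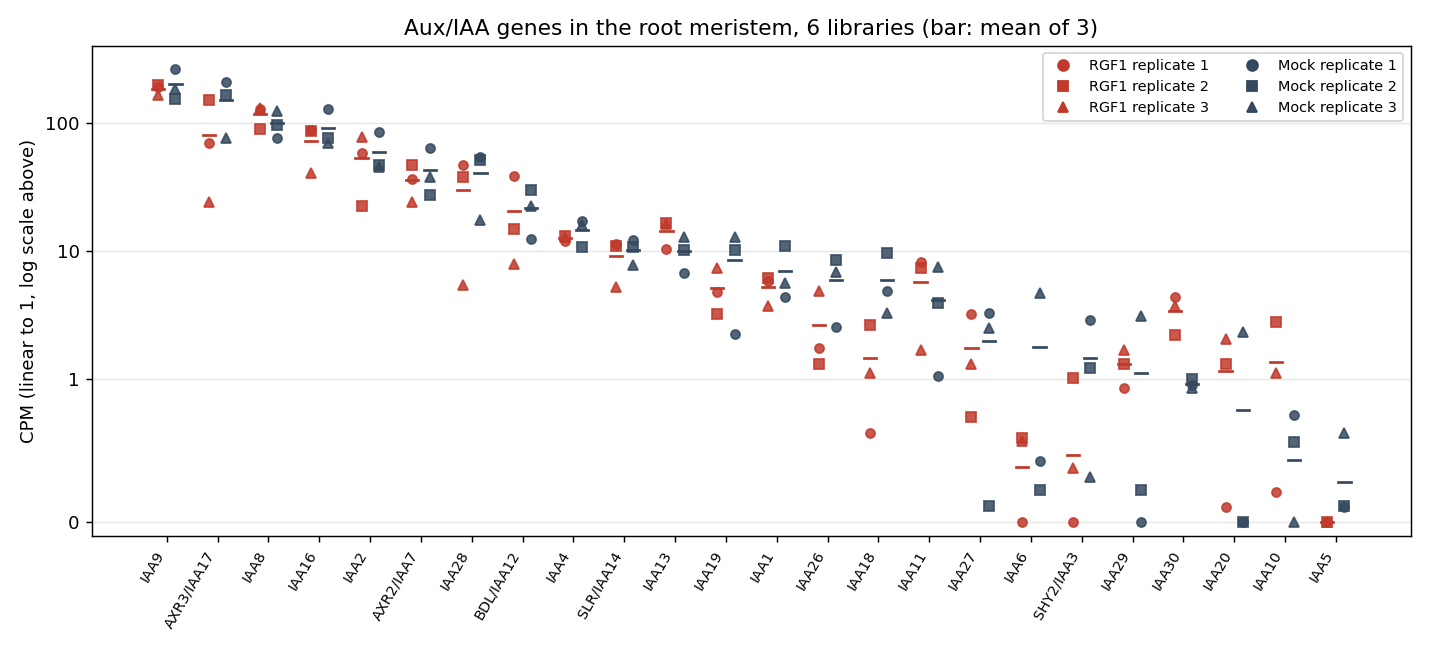
CPM of the 24 Aux/IAA genes in each of the 3 RGF1 and 3 Mock libraries, on an axis that is linear to 1 and logarithmic above, with the mean of each group as a bar. The groups overlap for most genes, the points of IAA30 are higher in RGF1 and those of IAA18 lower, and IAA17 has its lowest value of each group in replicate 3.

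IAA17 (AT1G04250, chr1:1136078-1138663, plus strand) was the Aux/IAA member nearest to the threshold in the block fit. It had 69.6, 150.2 and 24.3 CPM in RGF1 replicates 1 to 3, against 211, 167 and 76.1 CPM in Mock replicates 1 to 3. RGF1 replicate 2 lay above Mock replicate 3, so the groups overlapped, while each RGF1 library was below the Mock library of the same number. The log2 fold change was -0.89 ± 0.52 (SE, 95% interval -2.01 to 0.23, edgeR adjusted p = 0.752), and -1.12 with the replicate block (edgeR adjusted p = 0.0721). The differences within the pairs were -1.60, -0.15 and -1.64 on the log2 scale, so pair 2 stood apart. In the block fit without pair 2, an alternative chosen after the data were seen, IAA17 was called lower at -1.63 (edgeR adjusted p = 0.000702), and this was the only fit of those run that called a member. Without pair 1 or pair 3 its edgeR adjusted p with the block was 0.283 and 0.374.

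IAA18 and IAA30 were the 2 tested Aux/IAA genes whose libraries did not overlap between the groups. IAA18 (AT1G51950, chr1:19305081-19307518, plus), whose stabilised form blocks lateral root initiation, had 0.625, 2.64 and 1.13 CPM in RGF1 libraries, against 4.93, 9.63 and 3.29 CPM in Mock libraries. These were 6, 18 and 6 counts in RGF1 and 46, 86 and 21 counts in Mock. All 3 RGF1 libraries were below all 3 Mock libraries, and the log2 fold change was -2.02 ± 0.88 (SE, 95% interval -3.92 to -0.12, edgeR adjusted p = 0.597). IAA30 (AT3G62100, chr3:22995686-22996809, plus), which lacks the degron, had 4.38, 2.20 and 3.77 CPM in RGF1 libraries, against 0.964, 1.01 and 0.941 CPM in Mock libraries. Its Mock libraries held 9, 9 and 6 counts, and the log2 fold change was 1.81 ± 0.89 (SE, 95% interval -0.11 to 3.74, edgeR adjusted p = 0.672). IAA20, the other member without the degron letters, had 1, 9 and 11 counts in RGF1 and 0, 0 and 15 counts in Mock libraries. Its groups overlapped, all of its Mock counts were in replicate 3, and its fitted difference was 0.60 ± 1.58 (log2, SE).

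The 5 further Aux/IAA genes with the smallest p-values overlapped between the groups. IAA26 (AT3G16500, chr3:5612203-5614803, minus) had 1.77, 1.32 and 4.90 CPM in RGF1, against 2.57, 8.51 and 6.90 CPM in Mock libraries, and a log2 fold change of -1.18 ± 0.83 (SE). Each RGF1 library was below its same-numbered Mock library. IAA13 (AT2G33310, chr2:14113025-14116089, minus), the close relative of IAA12, had 10.4, 16.6 and 16.4 CPM in RGF1, against 6.75, 10.2 and 13.0 CPM in Mock libraries, a log2 fold change of 0.53 ± 0.47. It was higher in 3 of 3 pairs. IAA13 shares 1176 bp with AT2G33300 on the opposite strand, which had 0 counts in the 6 libraries. IAA19 (AT3G15540, chr3:5264001-5265695, plus), known for its part in tropic bending with ARF7, had 4.79, 3.23 and 7.35 CPM in RGF1, against 2.25, 10.3 and 13.0 CPM in Mock libraries. Its log2 fold change was -0.73 ± 0.72 and it was higher in RGF1 in 1 of 3 pairs.

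IAA16 (AT3G04730, chr3:1288155-1290891, minus) had 88.4, 87.3 and 40.7 CPM in RGF1, against 128, 76.6 and 70.3 CPM in Mock libraries, with a log2 fold change of -0.34 ± 0.34. IAA8 (AT2G22670, chr2:9636346-9638761, plus) had 129, 90.6 and 131 CPM in RGF1, against 76.8, 97.0 and 125 CPM in Mock libraries, with 0.23 ± 0.27. IAA9 (AT5G65670, chr5:26253408-26256544, plus) had 189.7, 199.6 and 165.7 CPM in RGF1, against 265, 155 and 186 CPM in Mock libraries, with -0.13 ± 0.26. The 95% intervals of IAA8 (-0.35 to 0.82) and IAA9 (-0.68 to 0.43) lay within a 2-fold difference either way, and they were the only Aux/IAA genes for which this held. For these 8 members with the smallest p-values and IAA9, the edgeR adjusted p lay between 0.597 for IAA18 and 0.969 for IAA9.

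The intervals of the other tested Aux/IAA genes all extended beyond a 2-fold difference. IAA28, which restrains lateral root formation, had 47.4, 38.0 and 5.46 CPM in RGF1, against 53.9, 51.8 and 17.6 CPM in Mock libraries. It was lowest in replicate 3 of both groups, and its log2 fold change of -0.43 ± 0.61 moved between -0.91 and 0.05 as single libraries were left out. IAA7 (AXR2) and IAA14 (SLR), known from stabilising mutants with altered gravitropism and without lateral roots, had log2 fold changes of -0.26 ± 0.37 and -0.16 ± 0.52. IAA12 (BDL), the embryonic partner of ARF5, had -0.08 ± 0.54, and its value was -0.92 without RGF1 replicate 1. IAA1, IAA2, IAA4, IAA11, IAA27 and IAA29 had log2 fold changes between -0.42 and 0.48, with standard errors between 0.41 and 1.34, in the fit of all 6 libraries without the block. With the replicate block IAA29 had 1.62 and IAA27 had 0.24, against -0.15 for IAA27 without it. Without Mock replicate 3, IAA11 had 1.21 and IAA29 had 3.39, with 0 and 2 IAA29 counts in the remaining Mock libraries.

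The 4 Aux/IAA genes that did not pass the filter each had some libraries at or below the counting floor and others above it. The floor is 3 counts per library, or 0.313, 0.440 and 0.565 CPM in RGF1 and 0.321, 0.336 and 0.470 CPM in Mock replicates 1 to 3 and covers counting error only. IAA3 (SHY2), the repressor through which cytokinin is known to limit root meristem size, had 0, 7 and 2 counts in RGF1 and 27, 11 and 2 counts in Mock libraries. IAA3 shares 640 bp with AT1G04230 on the opposite strand, which had 61, 43 and 62 counts in RGF1 and 106, 64 and 41 in Mock, and the use of strand in counting is not given in the sources used here. IAA5 had 0 counts in the 3 RGF1 libraries and 1, 1 and 4 in Mock libraries, without overlap but with 1 library above the floor. IAA6 had 0, 4 and 3 counts in RGF1 and 4, 2 and 30 in Mock, of which most were in 1 library, and IAA10 had 2, 19 and 6 in RGF1 and 7, 5 and 0 in Mock. IAA10 shares 619 bp with AT1G04105 on the opposite strand, which had 0 counts in 5 libraries and 1 in Mock replicate 1. No fold is given for these genes.

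The ARF genes had the narrowest intervals of the families, with a median width of 1.37 on the log2 scale, against 2.48 for Aux/IAA and 3.12 for GH3 genes. All 8 were tested, their summed level was 535 to 628 CPM in RGF1 and 548 to 603 CPM in Mock libraries, and their fitted differences were all under 1 in size on the log2 scale. Per length the highest Mock levels were those of ARF6 (27.5 ± 1.42 CPM per kb in RGF1 and 26.6 ± 10.9 in Mock), ARF19 (24.8 ± 1.24 and 25.7 ± 7.31) and ARF8 (24.7 ± 9.15 and 25.5 ± 8.92), which were not separable by their spread. At the low end were ARF10, with 11.7 ± 3.93 CPM per kb in RGF1 and 9.35 ± 2.88 in Mock, and ARF5, with 12.3 ± 5.06 and 9.85 ± 3.59, whose order is not resolved either. ARF6, ARF19, ARF8 and ARF2 together made up 63.4 ± 5.67% of the summed per-length ARF level in RGF1 and 65.8 ± 7.00% in Mock libraries.

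**Figure D3:**
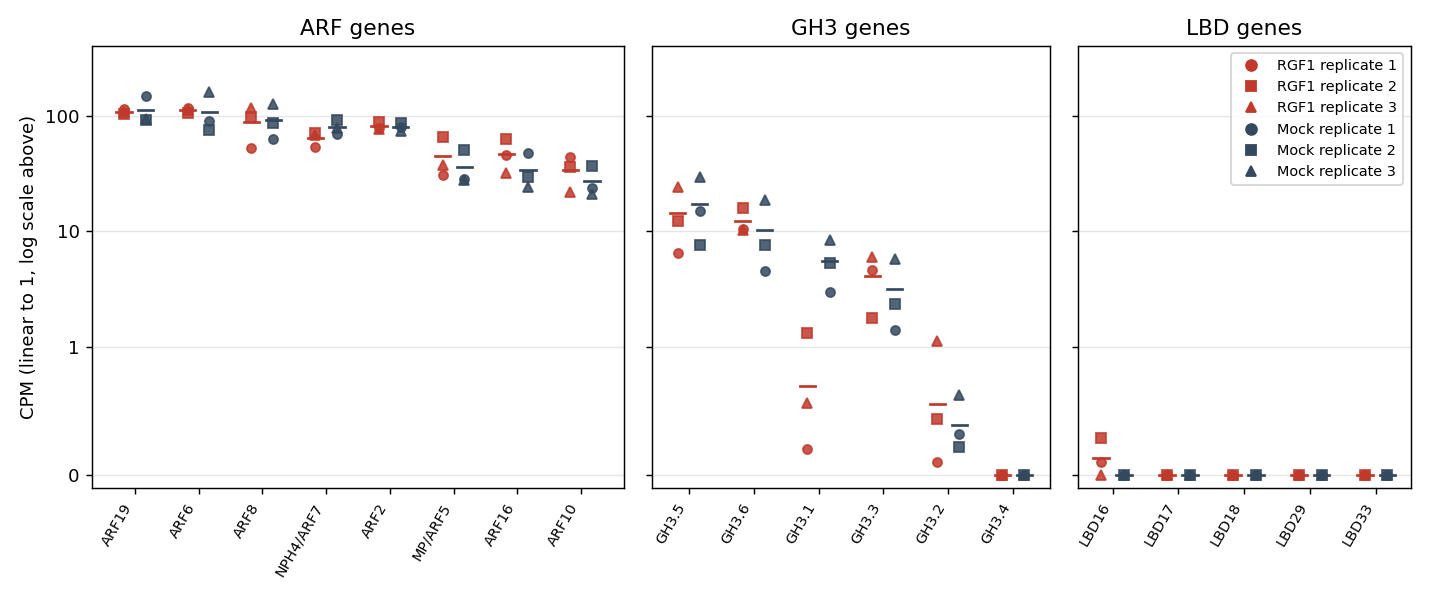
CPM of the 8 ARF, 6 GH3 and 5 LBD genes in each RGF1 and Mock library, on an axis that is linear to 1 and logarithmic above, with group means as bars. The ARF genes all lie between 21.2 and 158 CPM with overlapping groups, GH3.1 is lower in the 3 RGF1 libraries, and the LBD genes lie at 0 or below 1 CPM.

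Of the activating ARFs, ARF7 (NPH4, AT5G20730, chr5:7016445-7022179, minus) had 54.0, 70.6 and 67.4 CPM in RGF1, against 69.5, 91.7 and 77.9 CPM in Mock libraries. Each RGF1 library was below its same-numbered Mock library, though RGF1 replicate 2 exceeded Mock replicate 1, and the log2 fold change was -0.32 ± 0.26 (SE, edgeR adjusted p = 0.856). ARF7 overlaps the oppositely oriented gene AT5G20720 by 254 bp, and that gene had a log2 fold change of -0.03. ARF19 (AT1G19220, chr1:6627683-6633133, minus), which acts with ARF7 in lateral root formation, had 113, 103 and 107 CPM in RGF1, against 148, 91.7 and 93.9 CPM in Mock libraries, with a log2 fold change of -0.05 ± 0.26. ARF5 (MP), required for the embryonic root, had 30.7, 65.2 and 37.3 CPM in RGF1, against 28.5, 50.6 and 27.8 CPM in Mock libraries. It was higher in 3 of 3 pairs by 0.11, 0.36 and 0.42 on the log2 scale, yet the groups overlapped and the fitted value was 0.32 ± 0.37.

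ARF6 and ARF8, activators of flower maturation and adventitious rooting, are known targets of the microRNA miR167, and the repressors ARF10 and ARF16, known for their part in root cap formation, are targets of miR160. The miRNAs are shown with bases 2 to 8, the seed, in capitals, and the sites with the bases that are not complementary to the miRNA in capitals; T stands for U.
miR167a: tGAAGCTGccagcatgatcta
ARF6 site: GagatcaGgctggcagcttGT
ARF8 site: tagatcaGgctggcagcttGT
miR160a: tGCCTGGCtccctgtatgcca
ARF10 site: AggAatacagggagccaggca
ARF16 site: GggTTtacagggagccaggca
The miRNAs lie in TAIR10.1 at chr3:8108090-8108110 and chr2:16340282-16340302 on the plus strand. The sites lie in coding sequence, at chr1:10686478-10686498 on the minus strand for ARF6, chr5:14633841-14633861 plus for ARF8, chr2:12115741-12115761 plus for ARF10 and chr4:14704141-14704161 minus for ARF16. They had 4 mismatches in ARF6, 3 in ARF8, 2 in ARF10 and 3 in ARF16. The miRNAs themselves were not analysed here.

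ARF16 (AT4G30080, chr4:14703065-14706354, minus) had 45.8, 62.2 and 32.02 CPM in RGF1, against 47.3, 29.7 and 24.0 CPM in Mock libraries, the largest fitted ARF difference at 0.47 ± 0.35 (SE, edgeR adjusted p = 0.841). ARF10 (AT2G28350, chr2:12113889-12116957, plus) had 44.2, 36.1 and 21.7 CPM in RGF1, against 23.6, 36.7 and 21.2 CPM in Mock libraries, with 0.33 ± 0.37. In both genes a single pair of libraries held most of the difference, pair 2 for ARF16 (1.06) and pair 1 for ARF10 (0.90 on the log2 scale). ARF6 (AT1G30330, chr1:10685822-10690988, minus) had 117, 106 and 112 CPM in RGF1, against 89.8, 75.7 and 158 CPM in Mock libraries, with 0.05 ± 0.29, and ARF8 had -0.05 ± 0.34. ARF2, a repressor, had 78.0, 88.5 and 76.7 CPM in RGF1, against 79.6, 86.0 and 73.5 CPM in Mock libraries. Its log2 fold change of 0.02 ± 0.24 (95% interval -0.50 to 0.55) was the smallest of the family. The 95% intervals of 5 of the 8 ARF genes (ARF2, ARF6, ARF7, ARF8 and ARF19) lay within a 2-fold difference either way, against 2 of 20 Aux/IAA genes, 0 of 4 GH3 genes and 31.3% of all genes tested.

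The GH3 enzymes listed here join indole-3-acetic acid to amino acids and so lower the free hormone. GH3.1 (AT2G14960, chr2:6451319-6453797, minus) had the lowest p of the 32 tested members. It had 0.208, 1.32 and 0.565 CPM in RGF1, against 3.00, 5.26 and 8.31 CPM in Mock libraries, which were 2, 9 and 3 counts in RGF1 and 28, 47 and 53 counts in Mock. The groups did not overlap, and 2 of the 3 RGF1 libraries were at or below the floor of 3 counts. The log2 fold change was -2.97 ± 0.98 (SE, 95% interval -5.10 to -0.85, edgeR adjusted p = 0.364). It was lower in 3 of 3 pairs and stayed negative without any 1 library, between -3.87 and -2.50. Its adjusted p ranged from 0.0869 in DESeq2 to 0.750 in edgeR without RGF1 replicate 1.

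GH3.5 and GH3.6 carried most of the level of the 6 listed GH3 genes. Their share of the summed per-length level was 81.4 ± 6.23% in RGF1 and 73.0 ± 7.59% in Mock libraries. GH3.5 had 6.04 and 7.31 CPM per kb in RGF1 and Mock, and GH3.6 had 5.27 and 4.40. Outside the list, GH3.17 had 3.6 ± 2.0 CPM per kb in RGF1 and 9.7 ± 6.0 in Mock libraries. JAR1, a gene of the family that is not listed here as an auxin-conjugating enzyme, had 26.9 and 28.4 CPM per kb. GH3.5 (AT4G27260, chr4:13653579-13656285, plus) had 6.46, 12.3 and 23.9 CPM in RGF1, against 14.9, 7.61 and 29.2 CPM in Mock libraries. Replicate 3 was highest in both groups, and the log2 fold change was -0.28 ± 0.58 (SE). GH3.6 (AT5G54510, chr5:22130964-22133688, minus) had 10.5, 16.0 and 10.2 CPM in RGF1, against 4.50, 7.61 and 18.5 CPM in Mock libraries, with 0.27 ± 0.57. Pairs 1 and 2 were higher in RGF1 by 1.18 and 1.05 and pair 3 was lower at -0.85 on the log2 scale. GH3.3 had 4.58, 1.76 and 6.03 CPM in RGF1, against 1.39, 2.35 and 5.80 CPM in Mock libraries. For GH3.3, GH3.5 and GH3.6 the edgeR adjusted p was 0.9696 or more.

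GH3.2 and GH3.4 could not be tested. GH3.2 had 1, 3 and 6 counts in RGF1 and 3, 2 and 4 in Mock, and GH3.4 had 0 counts in the 6 libraries. Their transcripts are 90.0% identical over 1812 bp, and how reads that match several places were counted is not given in the sources used here, so the split between this pair is uncertain.

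The lateral root LBD genes were close to undetected. LBD16, LBD18 and LBD29 act in lateral root initiation, and LBD33 is known to pair with LBD18. LBD16 (AT2G42430, chr2:17663353-17665337, plus) had 1, 2 and 0 counts in RGF1 and 0 counts in the 3 Mock libraries. LBD17, LBD18, LBD29 and LBD33 had 0 counts in the 6 libraries, which allows up to 0.313, 0.440 and 0.565 CPM in RGF1 and 0.321, 0.336 and 0.470 CPM in Mock libraries. A difference in these genes was not detectable at this depth.

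Same-numbered libraries deviated together among the members as well. The deviations of same-numbered RGF1 and Mock libraries from their group means correlated at 0.338, 0.276 and 0.540 over the 32 tested members, which share libraries and depth. Differently numbered libraries gave values from -0.394 to 0.112. Deviations from a group mean cancel out within the group for each gene. The values for different numbers are therefore not independent of those for equal numbers. In both groups replicate 3 was the lowest library for 7 members (IAA14, IAA16, IAA17, IAA28, ARF2, ARF10 and ARF16) and the highest for 7 others (IAA8, IAA19, IAA20, IAA29, GH3.3, GH3.5 and ARF8). These were 21.9% of the members each, beside 16.1% and 15.5% of all genes tested. Within pairs, 3 members were higher in RGF1 in all 3 pairs (IAA13, IAA30 and ARF5), which is 9.38%, beside 17.5% of all genes tested. For 6 members (IAA17, IAA18, IAA26, IAA28, GH3.1 and ARF7) RGF1 was lower in all 3 pairs, which is 18.8%, beside 17.9% of all genes tested.

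**Figure D4:**
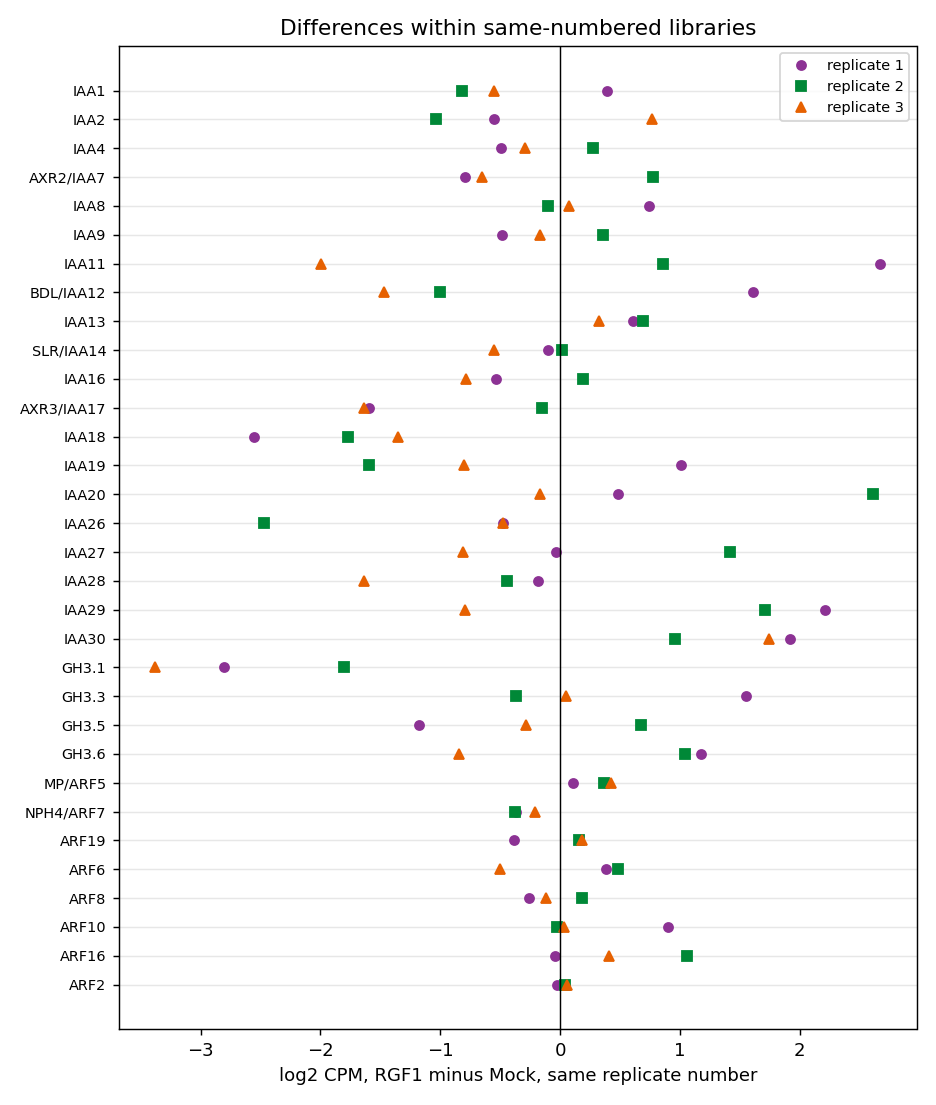
Difference in log2 CPM (prior count of 2) between the RGF1 and the Mock library of the same replicate number, for each of the 32 tested members; symbols mark the replicate number. The 3 points of IAA18 and GH3.1 lie left of 0 and those of IAA30 right of 0, while IAA11 spans -1.99 to 2.67.

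Members with and without a response element near the gene start had fitted differences in both directions. Of the 15 tested members with TGTCTC or TGTCGG in the window, 5 had positive and 10 negative log2 fold changes with a median of -0.15. Of the 17 without either motif, 8 were positive and 9 negative with a median of -0.05. IAA19, with its 3 copies of TGTCTC, had -0.73, IAA1, with both motifs, had -0.42, and GH3.3 had 0.38, each with an interval that includes 0.

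The machinery around the members was measured in 62 further genes of the pathway, of which 36 were tested and 0 were called by edgeR with or without the replicate block. At an unadjusted edgeR p below 0.05, 0 were higher and 2 lower. Across all 16737 genes tested, 713 were higher and 585 lower at that p (7.76% in either direction). The median log2 fold change of the 36 was -0.06. All 6 auxin receptors of the TIR1/AFB family were tested, with log2 fold changes of -0.24 to 0.35. The smallest p among them was that of AFB3 (63.6, 49.9 and 62.9 CPM in RGF1, against 44.2, 41.5 and 52.4 CPM in Mock libraries). The 9 genes of the ubiquitin ligase complex and its regulators lay between -0.17 and 0.40, where ECR1, a subunit of the enzyme that activates the cullin modifier RUB, had 0.40 ± 0.25 (SE).

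Among the 5 TOPLESS co-repressors, TPL had 209.7, 240.5 and 207 CPM in RGF1, against 157, 166 and 149 CPM in Mock libraries. The groups did not overlap, and its log2 fold change was 0.48 ± 0.22 (SE, edgeR adjusted p = 0.646). TPR2, another member of that set, had 75.6, 94.5 and 88.3 CPM in RGF1, against 135.9, 99.5 and 107.9 CPM in Mock libraries, also without overlap but with a negative value of -0.41 ± 0.25 (SE, edgeR adjusted p = 0.769). The shares of all genes tested without overlap were 7.30% higher and 6.18% lower. Of the Aux/IAA, ARF and GH3 genes outside the 43, 1 of 5, 6 of 14 and 3 of 7 were tested. The smallest p in each set had a negative log2 fold change, at -2.04 ± 0.97 for IAA33, -1.46 ± 0.77 for ARF3, a factor in organ polarity also called ETTIN, and -1.44 ± 0.58 for GH3.17, an enzyme that conjugates auxin to glutamate. GH3.17 had 3.65, 12.8 and 13.2 CPM in RGF1, against 24.6, 43.9 and 11.3 CPM in Mock libraries, and the groups overlapped. The 6 tested ARF genes outside the 43 had 1 positive and 5 negative values with a median of -0.91, and 0 were called. All 14 summed to 25.73 to 55.37 CPM in RGF1 and 56.25 to 99.89 CPM in Mock libraries, without overlap. The sums of the further Aux/IAA genes and of the further GH3 genes overlapped. YUC8, an enzyme of auxin synthesis, had 6.56, 11.3 and 4.52 CPM in RGF1, against 12.1, 15.9 and 20.4 CPM in Mock libraries. It did not overlap between the groups, with a log2 fold change of -1.11 ± 0.51 (SE, edgeR adjusted p = 0.635), and DAO1, which oxidises auxin, had 0.86 ± 0.60.

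The libraries held 9495012, 7004292 and 5421243 counts in RGF1 and 8959505, 8976382 and 6451658 counts in Mock replicates 1 to 3. The markers of the labelled tissue PLT1, PLT2, SHR, SCR and CYCB1;1 were present in all 6 libraries, while WOX5, the marker of the few quiescent centre cells, had 0 counts in 5 libraries and 2 in Mock replicate 3. Summed over their 6 genes the meristem markers had 212 to 239 CPM in RGF1 and 164 to 269 CPM in Mock libraries. PLT2 did not overlap between the groups, with 13.54, 35.96 and 15.63 CPM in RGF1, against 11.04, 5.82 and 10.82 CPM in Mock libraries. Its log2 fold change was 1.23 ± 0.501 (SE, edgeR adjusted p = 0.549). Of all genes tested, 7.30% were higher in RGF1 without overlap. The other tested meristem markers overlapped between the groups, with log2 fold changes from -0.74 to 0.03. Markers of other tissues were also present and varied. The 5 xylem markers summed to 12.6 to 25.1 CPM in RGF1 and 32.5 to 50.7 CPM in Mock libraries, without overlap. The log2 fold changes of all 4 xylem markers tested were negative. For 3 of them (XCP1, XCP2 and IRX3) the groups did not overlap, beside 6.18% of all genes tested lower without overlap. None was called by edgeR, and VND7 had 0 to 2 counts per library. The 5 green tissue markers summed to 50.6 to 522 CPM in RGF1 and 220 to 1115 CPM in Mock libraries. All 5 had negative log2 fold changes, and the groups overlapped for each. RCA was called lower in the block fit (edgeR adjusted p = 0.00345) but not in the main fit (edgeR adjusted p = 0.495). The block fit called 1.80% of all genes tested in either direction.

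The 4 root hair markers summed to 8.48 to 28.6 CPM in RGF1 and 8.63 to 39.0 in Mock, the 4 root cap markers to 2.50 to 26.7 in RGF1 and 5.04 to 23.5 in Mock, and the 5 Casparian strip markers to 2.19 to 14.5 in RGF1 and 0.157 to 40.5 CPM in Mock libraries. Several Aux/IAA and GH3 genes are expressed in tissues other than the meristem, and the part of these tissues in the lower values of IAA17, IAA18 and GH3.1 was not tested. In sections of this kind fewer cells of a type and less RNA per cell cannot be told apart. The summed Aux/IAA level was 542 to 722 CPM in RGF1 and 669 to 956 CPM in Mock libraries, and the summed GH3 level was 21.9 to 41.8 in RGF1 and 23.1 to 62.4 CPM in Mock libraries. Both sums overlapped between the groups.

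**Figure D5:**
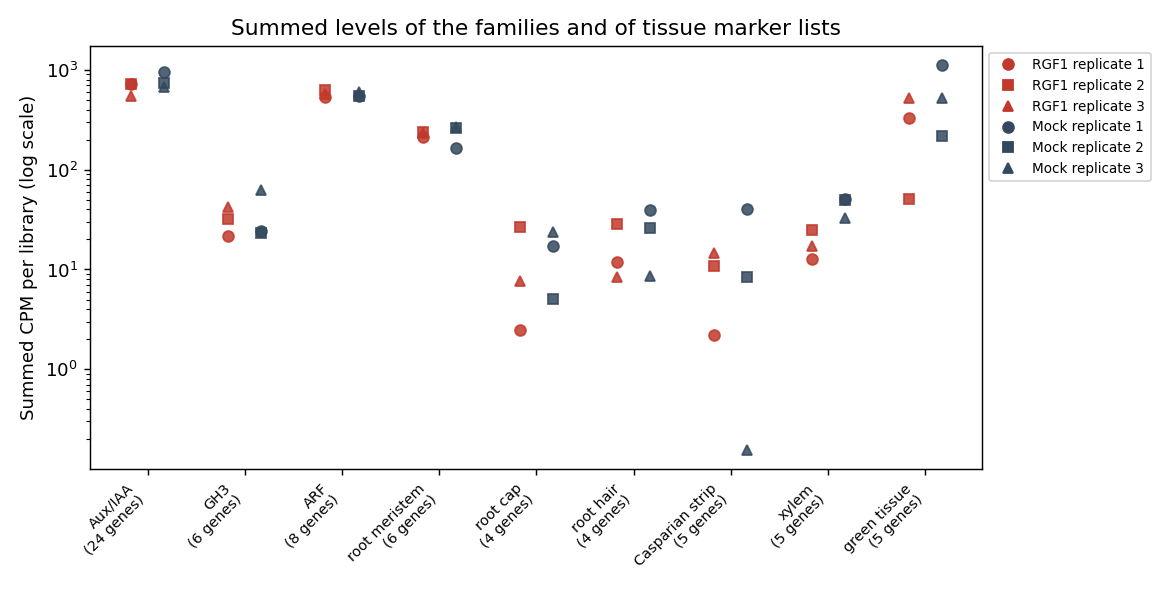
Summed CPM of the Aux/IAA, GH3 and ARF genes and of 6 lists of tissue markers in each RGF1 and Mock library, on a log scale. The sums of the families overlap between the groups, and the xylem sum is 12.6 to 25.1 CPM in RGF1 and 32.5 to 50.7 CPM in Mock libraries.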

How the data were processed

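Gene expression was measured by RNA-seq in 3 RGF1 and 3 Mock libraries. The authors deposited a table of raw, whole-number counts per gene for each library. Per the submitters' processing notes, TopHat2 2.1.1, HTSeq, DESeq2 and the build TAIR10 were used; their settings, and whether strand was used, are not given in these sources. Per the labels' protocols, total RNA was amplified to cDNA before library preparation, which can add spread to low counts, and reads without molecular identifiers are not independent molecules. Positions and sequences come from the TAIR10.1 RefSeq assembly, in which 30214 of 30424 gene identifiers were matched (the other 210 were organelle genes) and whose nuclear chromosomes are those of TAIR10.

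The main test of RGF1 over Mock was edgeR's (4.0.16, in R 4.3.3) quasi-likelihood F test with TMM scaling and the default expression filter, which kept 16737 genes; p-values were adjusted over these by the Benjamini-Hochberg method and genes called below 0.05. Standard errors come from the F statistic and intervals from the matching t quantile. The procedure was tested on simulated data. Total counts ranged from 5421243 to 9495012 per library. Libraries with the same replicate number deviated together (correlations 0.177, 0.214 and 0.299 over 16737 genes; the labels number the replicates without saying what they share), so a fit with the number as a block is given beside the main one. Alternatives were other scalings, DESeq2 1.42.0, limma 3.58.1 voom, other filters, the block, and leaving out libraries.

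The members, the pathway and marker lists and the tests were chosen with earlier results of these data known. Values of every library are given for the 8 Aux/IAA genes and the 3 ARF and 3 GH3 genes with the smallest unadjusted p, for the 2 members of each family with the highest Mock level per length, and for any member called; of the pathway lists, the gene with the smallest p is named. Further members were named after their values were seen.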

Additional observations from a re-analysis of the deposited data

How the results depend on the processing

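The count of members called was 0 in each direction under other scalings, DESeq2, limma voom, both other filters, the replicate block and without any 1 library. It was 1 lower (IAA17) in the block fit without pair 2, chosen after seeing the data, with 0 without pair 1 or pair 3. Over all genes edgeR called 78 higher and 5 lower, DESeq2 234 and 81, edgeR without a filter on low counts 176 and 46, and the replicate block 208 and 94. Leaving out 1 library gave 39 (RGF1 replicate 1) to 113 (Mock replicate 1) higher and 1 to 5 lower; with the block, leaving out pair 1, 2 or 3 gave 204, 221 and 116 higher and 60, 130 and 39 lower. Leaving out 1 library, the median log2 fold change lay between -0.30 (RGF1 replicate 1) and -0.020 (Mock replicate 1) for Aux/IAA, -0.038 (RGF1 replicate 2) and 0.17 (Mock replicate 3) for ARF, and -0.44 (RGF1 replicate 3) and 0.67 (Mock replicate 3) for GH3; with the block and all libraries the medians were -0.22, 0.07 and 0.09. The ARF and GH3 medians thus have no stable sign. The causes were not tested. Of the 32 members, 2 to 9 changed sign when 1 library was left out, and 0 or 1 under the other planned settings. With 3 libraries a group the median width of the 95% interval was 2.25 on the log2 scale for members and 1.83 for all genes.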

Other observations

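SAUR genes, a large family of small auxin-induced genes that promote cell expansion, are not among the 43 members. They were looked up by product name after the data had been seen. Of 78 such genes, 15 were tested and edgeR called 0, with or without the replicate block. At an unadjusted edgeR p below 0.05, 1 was higher and 7 were lower. Across all 16737 genes tested, 713 were higher and 585 lower at that p (7.76% in either direction). The 7 lower SAUR genes also did not overlap between the groups, beside 6.18% of all genes tested lower without overlap. The median log2 fold change of the 15 was -1.11. All 4 xylem and 5 green tissue markers tested were negative as well, with medians of -1.37 and -1.04. The summed xylem level did not overlap between the groups. In other tissue lists the medians were 0.40 over the 2 Casparian strip and -0.30 over the 4 root cap markers tested. The Casparian strip markers not tested were CASP2, CASP4 and CASP5. Their means were 0.62, 1.05 and 0.54 CPM in RGF1, against 2.07, 4.48 and 4.33 CPM in Mock libraries, mostly from Mock replicate 1. The medians were -0.57 over the 4 root hair and -0.16 over the 5 meristem markers tested. The part of these tissues in the SAUR values was not tested. AT2G16580, the one with the most counts, had 12.8, 7.78 and 7.53 CPM in RGF1, against 21.9, 20.6 and 23.1 CPM in Mock libraries, and a log2 fold change of -1.21 ± 0.42 (SE, edgeR adjusted p = 0.405). AT1G75580 was the 1 higher gene, with 3.75, 2.94 and 3.77 CPM in RGF1, against 0.107, 1.57 and 0.314 CPM in Mock libraries. The SAUR genes AT4G34750, AT4G34760, AT4G34800 and AT4G34810, whose identifiers place them close together on chromosome 4, are 4 of the 7.

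Of 41 genes with an LBD product name, 25 had 0 counts in the 6 libraries and 7 were tested, of which edgeR called 0 (0 also at an unadjusted p below 0.05). LBD13 had 35.9, 31.6 and 46.7 CPM in RGF1, against 37.8, 35.8 and 36.2 CPM in Mock libraries. LBD37, LBD38 and LBD39, known as nitrogen-responsive regulators, had log2 fold changes of 0.30 ± 0.47, -0.56 ± 0.37 and -0.56 ± 0.41 (SE).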
